A study of Mus musculus with 6 samples.

Results

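In all, 10 genes of milk protein synthesis and alveolar secretion were followed in tumour cells sorted for Elf5: the caseins Csn1s1, Csn1s2a, Csn2 and Csn3, the whey proteins Wap and Lalba, and Glycam1, Btn1a1, Muc15 and Wfdc18. They were chosen by symbol, and all 10 were found among the 52325 genes of the deposited table. All 10 also passed the filter on low counts that left 20684 genes for testing. RNA was sequenced from 6 cell populations of breast tumours, all from C57BL/6 mice labelled C3-T; Elf5-GFP, whose reporter makes cells with Elf5 fluoresce green. After collagenase and hyaluronidase digestion and a first sort with CD45, CD31 and TER119 antibodies, which mark leukocytes, endothelium and erythroid cells, fluorescent (Elf5-positive) cells gave 2 libraries and non-fluorescent (Elf5-negative) cells gave 4. The age and reproductive state of the mice and the regulatory sequence behind the reporter are not given in the labels. Each sample title also holds a number and a code, T1 or T2, whose meaning the labels leave undefined. The number of Elf5-positive library 1 and Elf5-negative libraries 1 and 2 is called A here, and that of Elf5-positive library 2 and Elf5-negative libraries 3 and 4 is called B. Both Elf5-positive libraries and Elf5-negative libraries 2 and 4 are T2, and Elf5-negative libraries 1 and 3 are T1. Nothing in the labels ties the libraries to separate animals, and the p-values below therefore cover the spread among these 6 libraries, which may be technical.

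Milk proteins are made by secretory alveolar cells of the mammary gland, which arise from luminal progenitors during pregnancy. Prolactin binds its receptor and activates the transcription factor Stat5, which binds sites of the form TTCNNNGAA near milk genes, and the ETS factor Elf5 is required in mice for alveolar development. Caseins are packed into micelles held in solution by kappa-casein (Csn3), alpha-lactalbumin (Lalba) is the regulatory subunit of lactose synthase, and butyrophilin (Btn1a1) lines the milk fat globule membrane.

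The promoters of 5 of these genes are shown. Those of Wap and Lalba, not shown, have no match to the Stat5 form. By title number these 2 genes had log2 differences, A over B, of 5.47 and 3.34. Whether the motif goes with the libraries in which a gene was high was not tested. Windows of 300 bases, from 250 before to 50 after the transcription start, were found for 7 of the 10 genes in the RefSeq promoter table (GRCm38.p6). Runs of 9 capitals mark TTCNNNGAA, the Stat5 form, and runs of 5 capitals mark the ETS core GGAAG on either strand. No 2 marked matches overlap in these windows.
Csn1s1 (chr5:87665958-87666257, plus strand): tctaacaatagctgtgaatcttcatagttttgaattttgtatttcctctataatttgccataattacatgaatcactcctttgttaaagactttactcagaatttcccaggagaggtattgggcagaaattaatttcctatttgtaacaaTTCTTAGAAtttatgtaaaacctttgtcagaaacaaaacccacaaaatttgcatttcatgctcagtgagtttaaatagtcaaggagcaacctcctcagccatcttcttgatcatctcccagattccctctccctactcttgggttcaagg
Wfdc18 (chr11:83708754-83709053, plus strand): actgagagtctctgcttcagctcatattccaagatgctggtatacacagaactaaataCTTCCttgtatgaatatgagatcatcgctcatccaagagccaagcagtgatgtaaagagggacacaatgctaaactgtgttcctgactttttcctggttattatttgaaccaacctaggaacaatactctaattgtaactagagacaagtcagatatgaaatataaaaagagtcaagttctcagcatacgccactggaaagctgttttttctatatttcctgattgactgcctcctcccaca
Csn2 (chr5:87699376-87699675, minus strand): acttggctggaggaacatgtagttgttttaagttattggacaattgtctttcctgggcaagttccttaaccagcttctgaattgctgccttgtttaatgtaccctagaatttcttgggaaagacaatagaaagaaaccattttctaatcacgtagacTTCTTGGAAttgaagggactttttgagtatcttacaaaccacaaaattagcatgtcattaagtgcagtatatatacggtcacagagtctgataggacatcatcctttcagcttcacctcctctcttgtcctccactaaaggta
Csn1s2a (chr5:87774200-87774499, plus strand): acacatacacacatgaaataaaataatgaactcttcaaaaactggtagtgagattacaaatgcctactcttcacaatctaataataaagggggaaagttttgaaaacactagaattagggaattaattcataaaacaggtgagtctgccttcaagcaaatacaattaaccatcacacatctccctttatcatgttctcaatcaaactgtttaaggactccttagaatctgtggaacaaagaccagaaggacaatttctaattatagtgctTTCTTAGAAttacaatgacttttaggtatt
Glycam1 (chr15:103565032-103565331, minus strand): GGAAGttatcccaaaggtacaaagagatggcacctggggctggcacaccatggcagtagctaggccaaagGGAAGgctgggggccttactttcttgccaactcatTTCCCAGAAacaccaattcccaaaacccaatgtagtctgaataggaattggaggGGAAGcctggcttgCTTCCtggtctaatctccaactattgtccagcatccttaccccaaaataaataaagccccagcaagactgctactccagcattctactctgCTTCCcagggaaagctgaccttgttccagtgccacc
TTCNNNGAA was present in 4 of the 7 windows, those of Csn1s1, Csn1s2a, Csn2 and Glycam1, and in 8.30% of all 32851 promoters of the table. Csn1s1 and Csn1s2a carry the same letters, TTCTTAGAA, and Csn2 carries TTCTTGGAA. The match begins at position -100 in Csn1s1, -93 in Csn2 and -145 in Glycam1, and at position 21 in Csn1s2a. Positions count from the start in the promoter table, which can differ from the GENCODE gene coordinates given below: for Csn1s2a it lies upstream of the GENCODE start, as does the match, and for Csn2 it lies inside the gene. GGAAG was present in 4 of the 7 windows, those of Wap, Lalba, Glycam1 and Wfdc18, and in 71.4% of all promoters. A match describes the letters and does not show that a factor binds there.

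Library totals were 45145621 and 49563376 counts in the Elf5-positive libraries and 9106660 to 53694884 in the Elf5-negative libraries, with the smallest in Elf5-negative library 4, where 3 counts correspond to 0.329 CPM before TMM scaling (CPM, counts scaled to library size; every level below is TMM-scaled). Elf5 itself was at 77.7 and 137.0 CPM in the Elf5-positive libraries and at 6.93 to 24.7 CPM in the Elf5-negative libraries, which checks the sort. Of 19 luminal epithelial markers 12 rose and 0 fell in Elf5-positive cells (edgeR, Benjamini-Hochberg adjusted p below 0.05), with summed levels of 6721 to 9816 CPM against 2469 to 4183 CPM. Among all genes tested 0.585% rose and 3.79% fell at this threshold. Of 12 fibroblast markers 10 fell, with sums of 1648 to 1652 CPM against 16883 to 49709 CPM, and of 10 endothelial markers 3 fell, with sums of 16.1 to 46.7 CPM against 68.3 to 168.6 CPM. Basal and myoepithelial sums were 743.8 to 1104 CPM against 909.2 to 1860 CPM, with 5 of 10 genes lower. None of 10 leukocyte, 4 tested of 6 erythroid, 5 tested of 8 adipocyte and 8 skeletal muscle markers passed. Their sums were 36.5 to 68.7 against 42.6 to 128.2 CPM for leukocytes, 3.62 to 11.2 against 2.16 to 15.7 CPM for erythroid cells, 5.15 to 19.4 against 17.6 to 84.5 CPM for adipocytes, and 3.75 to 4.12 against 2.91 to 228.7 CPM for skeletal muscle. The part that these other cells play in the milk gene levels was not tested, and in sorted bulk RNA a smaller share of secretory cells and less RNA per cell cannot be told apart.

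Milk transcripts were a small part of every library. The 10 genes together took 0.0341% and 0.0950% of the counts in Elf5-positive libraries 1 and 2 (exact 95% intervals 0.0336 to 0.0347% and 0.0942 to 0.0959%), against 0.0273%, 0.00630%, 0.00627% and 0.0334% in Elf5-negative libraries 1 to 4. As TMM-scaled shares this was 0.0629 ± 0.0399% in Elf5-positive cells (SD, n = 2) and 0.0178 ± 0.0130% in Elf5-negative cells (SD, n = 4). The lowest Elf5-positive share, in library 1, lay only just above the highest Elf5-negative share, in library 4. Without Elf5-positive library 2 the Elf5-positive share was 0.0347%.

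**Figure D1:**
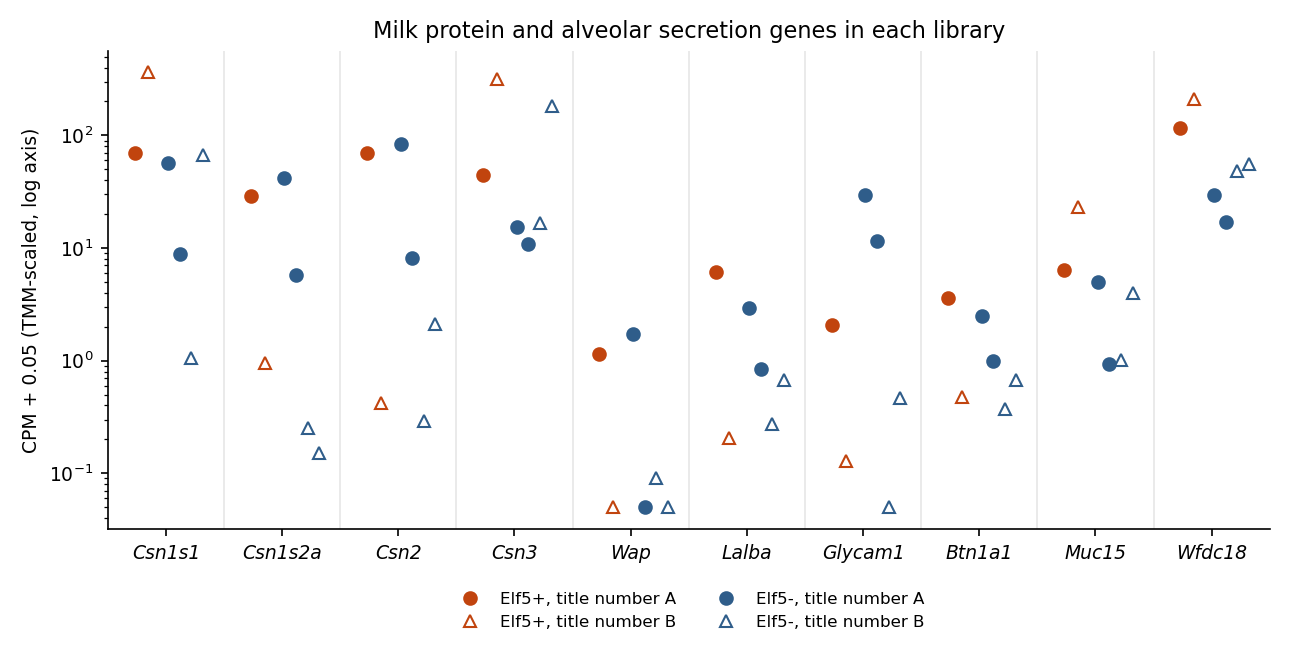
Level of each gene in each library, as TMM-scaled CPM plus 0.05 on a log axis, with Elf5-positive libraries left of Elf5-negative libraries within each gene. Filled circles are libraries with the title number A and open triangles those with B. Muc15, Wfdc18 and Csn1s1 are higher in both Elf5-positive libraries than in any Elf5-negative library, whereas Csn1s2a, Csn2, Lalba, Glycam1 and Btn1a1 are higher in all A libraries than in any B library.

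Among the caseins, Csn1s1 (alpha-S1-casein; ENSMUSG00000070702.9, chromosome 5, 87666208 to 87682578, plus strand, GRCm38) was at 69.2 and 361.7 CPM in Elf5-positive libraries 1 and 2, against 57.2, 8.76, 0.997 and 66.7 CPM in Elf5-negative libraries 1 to 4. Its groups did not overlap, but Elf5-positive library 1 lay only just above Elf5-negative library 4. Its log2 fold change, Elf5-positive over Elf5-negative, was 2.70 with a standard error (SE) of 1.25 and did not pass (edgeR, adjusted p = 0.336), and without Elf5-positive library 2 it was 1.07. Csn3 (kappa-casein; ENSMUSG00000001622.15, chromosome 5, 87925579 to 87932665, plus strand) was at 44.2 and 314.7 CPM in the Elf5-positive libraries, against 15.2, 10.9, 16.8 and 183.2 CPM in the Elf5-negative libraries. The level in Elf5-negative library 4 exceeded that of Elf5-positive library 1, and the log2 fold change of 1.68 (SE 1.20) did not pass (adjusted p = 0.573). Without Elf5-negative library 4 it was 3.68 and passed (adjusted p = 0.0379), and without Elf5-positive library 2 it was -0.33.

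The other 2 caseins were arranged differently. Csn2 (beta-casein; ENSMUSG00000063157.9, chromosome 5, 87692624 to 87699630, minus strand) was at 70.1 and 0.368 CPM in Elf5-positive libraries 1 and 2, against 83.1, 8.10, 0.244 and 2.06 CPM in Elf5-negative libraries 1 to 4. Csn1s2a (an alpha-S2-casein; ENSMUSG00000061937.7, chromosome 5, 87774567 to 87788797, plus strand) was at 28.7 and 0.910 CPM, against 41.5, 5.77, 0.203 and 0.103 CPM in the same order. In both genes each library numbered A, of either sort, lay above each library numbered B. Their log2 fold changes between the sorts were 0.58 (SE 1.97) and 0.30 (SE 1.89), with adjusted p = 0.931 and 0.965 in edgeR. Both fold changes turned negative, to -5.98 and -3.72, when Elf5-positive library 1 was left out.

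Of the whey proteins, Lalba (ENSMUSG00000022991.5, chromosome 15, 98480400 to 98482721, minus strand) was at 6.07 and 0.155 CPM in Elf5-positive libraries 1 and 2, against 2.90, 0.788, 0.224 and 0.617 CPM in Elf5-negative libraries 1 to 4. Lalba was also higher in each A library than in any B library, if narrowly in Elf5-negative library 2. Wap (whey acidic protein; ENSMUSG00000000381.10, chromosome 11, 6635482 to 6638637, minus strand) had 49 and 0 counts in the Elf5-positive libraries, against 76, 0, 2 and 0 counts in the Elf5-negative libraries. Wap was thus above 3 counts in only 1 library of each sort, both numbered A, with 1.10 CPM in the Elf5-positive one and 1.66 CPM in the Elf5-negative one. Before TMM scaling, a count of 0 allows up to 0.0605 CPM in Elf5-positive library 2, against 0.0920 and 0.329 CPM in Elf5-negative libraries 2 and 4, for counting error only. The log2 fold changes of Lalba and Wap, 1.43 (SE 1.25) and 0.24 (SE 1.92), did not pass (edgeR adjusted p = 0.662 and 0.972).

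Glycam1, a mucin-like secreted glycoprotein of milk and of high endothelial venules (ENSMUSG00000022491.5, chromosome 15, 103562759 to 103565081, minus strand), was at 2.02 and 0.0774 CPM in Elf5-positive libraries 1 and 2, against 29.4, 11.6, 0 and 0.411 CPM in Elf5-negative libraries 1 to 4. It was the only one of the 10 with a negative fold change between the sorts, -3.31 (SE 2.33), which did not pass (edgeR adjusted p = 0.566). It was -7.01 without Elf5-positive library 1 and -1.94 without Elf5-negative library 1. Btn1a1 (ENSMUSG00000000706.16, chromosome 13, 23456992 to 23465901, minus strand) was at 3.58 and 0.426 CPM in the Elf5-positive libraries, against 2.47, 0.946, 0.325 and 0.617 CPM in the Elf5-negative libraries, with a log2 fold change of 0.85 (SE 0.96, edgeR adjusted p = 0.746). Glycam1 and Btn1a1, too, were higher in each library numbered A than in any numbered B. Summed endothelial markers, given here because Glycam1 is also a venule gene, were 46.7, 168.6 and 123.3 CPM in Elf5-positive library 1 and Elf5-negative libraries 1 and 2, against 16.1, 118.8 and 68.3 CPM in Elf5-positive library 2 and Elf5-negative libraries 3 and 4, and their part in its level was not tested.

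Muc15, a transmembrane mucin found in the milk fat globule membrane (ENSMUSG00000050808.13, chromosome 2, 110721340 to 110739527, plus strand), was at 6.28 and 23.3 CPM in Elf5-positive libraries 1 and 2, against 4.93, 0.883, 0.956 and 3.91 CPM in Elf5-negative libraries 1 to 4. Its groups did not overlap, and its log2 fold change of 2.48 (SE 0.80) did not pass in edgeR (adjusted p = 0.150) but did in DESeq2 (2.48, adjusted p = 0.0222). Without Elf5-positive library 2 it was 1.25 in edgeR. Wfdc18, a secreted protein with a whey acidic protein domain and known as Expi (ENSMUSG00000000983.13, chromosome 11, 83709015 to 83711348, plus strand), was at 115.6 and 210.0 CPM in the Elf5-positive libraries, against 29.5, 17.1, 48.7 and 55.1 CPM in the Elf5-negative libraries. Both Elf5-positive values lay above all 4 Elf5-negative values, and Wfdc18 averaged 162.8 ± 66.8 CPM (SD, n = 2) against 37.6 ± 17.5 CPM (SD, n = 4). Its log2 fold change was 2.12 with an SE of 0.45, and it was the only one of the 10 to pass (edgeR adjusted p = 0.0439). Without Elf5-positive library 2 the fold change of Wfdc18 was 1.62, and no call is given because that fit leaves 1 Elf5-positive library. Wfdc18 did not pass in edgeR without Elf5-negative library 1 (2.02, adjusted p = 0.134) or 3 (2.27, adjusted p = 0.0985). In these 2 fits 0.123% and 0.211% of all genes passed as higher, against 0.585% with all 6 libraries. Nor did Wfdc18 pass in the T2 libraries alone (2.19, edgeR adjusted p = 0.362). It also did not pass without Elf5-negative libraries 1 and 2 together (1.68, edgeR adjusted p = 0.154). In each of these fits 0 of all genes passed as higher. When libraries were scaled to the luminal epithelial markers instead, Wfdc18 was at 0.84 and did not pass (edgeR adjusted p = 0.184). That fit called 0.0629% of all genes higher and 41.9% lower.

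Between the sorts, then, 1 of 10 milk genes rose and 0 fell, where 0.585% of all genes tested rose and 3.79% fell. Without an overlap between the sorts 3 of the 10 were higher and 0 lower, against 10.9% and 14.8% of all genes. The median log2 fold change was 1.14 for the 10 genes and 0.05 for all genes tested. It rested on Elf5-positive library 1: without it the median was -2.12, with 4 of the 10 positive, and that of all genes was -0.03. Scaled to the luminal markers, the 10 genes had a median of -0.64 and all genes one of -1.31, and 4 of the 10 genes, Csn1s1, Csn3, Muc15 and Wfdc18, kept a positive fold change.

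Per kilobase of the longest coding transcript, a scale on which levels of different genes can be set side by side, Wfdc18 was the highest of the 10 in both Elf5-positive libraries, at 221.8 and 403.1 CPM per kilobase. In Elf5-positive library 1 it was followed by Csn2 at 52.7, Csn1s1 at 49.1, Csn1s2a at 31.2 and Csn3 at 27.7 CPM per kilobase. In Elf5-positive library 2 it was followed by Csn1s1 at 256.3 and Csn3 at 197.2 CPM per kilobase, with Muc15 next at 6.80 and Csn1s2a and Csn2 at 0.989 and 0.277. The 4 caseins thus lay within 27.7 to 52.7 CPM per kilobase in library 1 and within 0.277 to 256.3 in library 2.

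Set side by side, Elf5-positive library 1 held 190.5 times as much Csn2 as Elf5-positive library 2 (exact 95% interval 121.8 to 316.8, counting error only). The ratios were 39.2 for Lalba (19.6 to 91.8), 31.5 for Csn1s2a (23.6 to 43.1), 26.2 for Glycam1 (9.87 to 98.1) and 8.40 for Btn1a1 (5.36 to 13.8). Wap, with no count in library 2, was at least 19.0-fold higher in library 1, taking 3 counts as the floor of library 2. The other 4 genes went the other way, with ratios of library 1 over library 2 of 0.141 for Csn3, 0.191 for Csn1s1, 0.270 for Muc15 and 0.550 for Wfdc18. On log2 CPM with a prior count of 2, 6 of the 10 were at least 4-fold higher and 2 at least 4-fold lower in library 1, against 4.71% and 4.07% of all genes tested. Each side is 1 library, so this difference has no replicate check within the Elf5-positive sort.

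**Figure D2:**
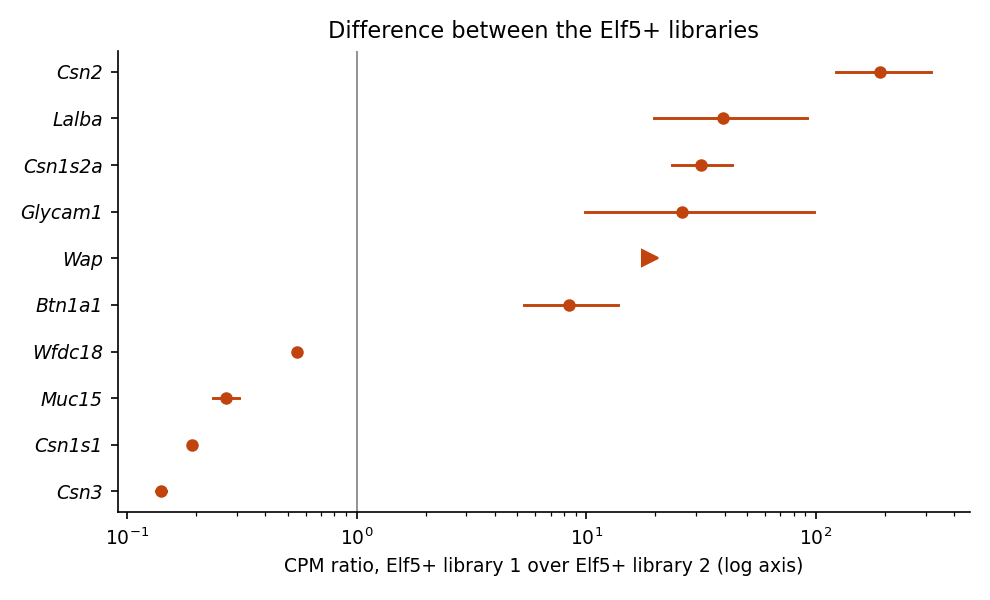
Ratio of TMM-scaled CPM, Elf5-positive library 1 over Elf5-positive library 2, for each gene on a log axis, with exact 95% intervals for counting error and a line at equality. The arrowhead for Wap is a lower bound of 19.0. Ratios span 0.141 for Csn3 to 190.5 for Csn2.

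The title number divides the 6 libraries into 3 and 3, each with 1 Elf5-positive library. The differences between Elf5-positive libraries above are part of this split, and the comparison by number was made after the levels had been seen. In a fit with the sort and the number, Glycam1, Csn2, Csn1s2a and Wap had log2 differences, A over B, of 6.53 (SE 1.19), 6.39 (SE 1.21), 6.12 (SE 0.93) and 5.47 (SE 1.80). Lalba and Btn1a1 had differences of 3.34 (SE 0.93) and 2.37 (SE 0.61). Csn3 was at -2.90 (SE 0.76) and Wfdc18 at -1.06 (SE 0.25), while Csn1s1 at -0.78 (SE 1.34) and Muc15 at -0.42 (SE 0.87) differed by less than their errors. In the T2 libraries alone, 1 of each sort and number, these last 2 were lower, Csn1s1 at -2.67 (edgeR adjusted p = 0.0109) and Muc15 at -2.02 (adjusted p = 0.0193). That fit rests on 4 libraries and called 8.77% of all genes higher and 8.12% lower. No milk gene passed by number in edgeR after adjustment, with the smallest adjusted p = 0.218, where 0% of all genes passed as higher and 0.00483% as lower. At an unadjusted p below 0.05 6 of the 10 were higher and 2 lower, against 7.12% and 7.45% of all genes. Without an overlap 5 of the 10 were higher in the A libraries, against 8.83% of all genes, and none was lower, against 8.1%. DESeq2 with the same terms called 5 of the 10 higher (Csn1s2a, Csn2, Lalba, Glycam1 and Btn1a1) and 2 lower (Csn3 and Wfdc18), where it called 2.49% of all genes higher and 3.11% lower. The median difference by number was 2.85 for the 10 genes and 0.02 for all genes tested.

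**Figure D3:**
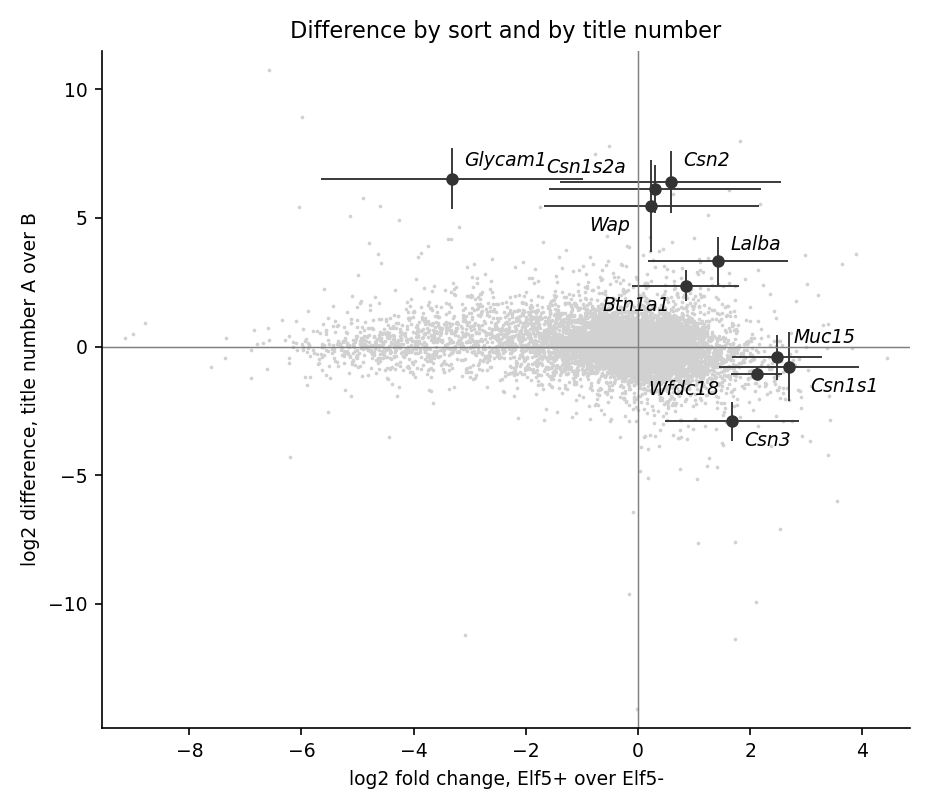
Log2 fold change between the sorts (x axis, Elf5-positive over Elf5-negative) and log2 difference by title number (y axis, A over B) of the 10 genes as dark points with bars of 1 standard error, over genes whose average log2 CPM was 0 or more in grey. The 6 genes at the top lie between 2.37 and 6.53 by number, and Csn1s1, Csn3, Muc15 and Wfdc18 lie at 1.68 or more by sort and below 0 by number.

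Summed marker levels of other cells are set out by number, without a test. Leukocyte sums did not overlap between the numbers, and adipocyte and skeletal muscle sums did. Summed adipocyte markers were at 19.4, 84.5 and 43.8 CPM in Elf5-positive library 1 and Elf5-negative libraries 1 and 2 (A), against 5.15, 36.4 and 17.6 CPM in Elf5-positive library 2 and Elf5-negative libraries 3 and 4 (B). Leukocyte sums were 68.7, 128.2 and 75.6 CPM against 36.5, 46.3 and 42.6 CPM in the same order. Skeletal muscle sums were 4.12, 228.7 and 39.7 CPM against 3.75, 2.91 and 5.35 CPM in the same order. Fabp4 was the largest part of each adipocyte sum, at 16.9, 71.5 and 39.8 CPM against 2.90, 34.4 and 12.1 CPM. Adipoq, with at most 10 counts in any library, went the other way, at 0.0225, 0 and 0.126 CPM against 0.174, 0.203 and 0.823 CPM. Log2 differences by number, A over B, of the 5 tested adipocyte markers ran from -0.41 for Plin1 to 1.66 for Fabp4. The myosin gene Myh4 had 0 counts in all 3 libraries numbered B. The leptin gene Lep had 10 counts in Elf5-negative library 1, 1 in Elf5-negative library 3 and 0 in every other library. The part of these cells in the milk gene difference was not tested.

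Within number A, T2 cells of both sorts could be set side by side as pair 1 (Elf5-positive library 1 over Elf5-negative library 2), and within number B as pair 2 (Elf5-positive library 2 over Elf5-negative library 4). In pair 1 the ratio was 8.65 for Csn2 (exact 95% interval 7.61 to 9.86, counting error only), 7.90 for Csn1s1, 7.71 for Lalba, 7.11 for Muc15, 6.78 for Wfdc18, 4.97 for Csn1s2a, 4.07 for Csn3 and 3.78 for Btn1a1. Wap was at least 11.7-fold higher in pair 1, taking 3 counts as the floor of Elf5-negative library 2. Glycam1 alone was lower in the Elf5-positive library of pair 1, with a ratio of 0.175 (0.137 to 0.221). In pair 2 the ratio was 5.95 for Muc15 (4.31 to 8.45), 5.42 for Csn1s1 (5.01 to 5.87), 3.81 for Wfdc18 (3.49 to 4.16) and 1.72 for Csn3 (1.64 to 1.81). Csn2 had 19 counts in Elf5-positive library 2 and 20 in the much shallower Elf5-negative library 4, a ratio of 0.179 (0.0903 to 0.353). Csn1s2a, Glycam1, Lalba and Btn1a1 had at most 6 counts in Elf5-negative library 4, and Wap had none in either library of pair 2. At least 4-fold higher were 8 of the 10 in pair 1, against 2% of all genes, and 3 of the 10 in pair 2, against 2.63%. The 3 were Csn1s1, Muc15 and Csn1s2a, the last with 1 count in Elf5-negative library 4 and a ratio of 8.85 (1.51 to 356.7). At least 4-fold lower was 1 of the 10 in each pair, against 7.47% of all genes in pair 1 and 6.87% in pair 2. Csn1s1, Csn1s2a, Muc15 and Wfdc18 were thus more than 3-fold higher in the Elf5-positive library of both pairs by their ratios, and Csn3 was higher in both by less. Glycam1 was lower in both, with a ratio of 0.188 in pair 2 (0.0351 to 1.01) from 4 counts on each side.

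The makeup of the casein counts, which does not depend on how libraries are scaled, separated the title numbers. Csn2 made up 33.0% of the counts of the 4 caseins in Elf5-positive library 1 (exact 95% interval 32.1 to 34.0%) and 42.2% and 24.2% in Elf5-negative libraries 1 and 2, all numbered A. It made up 0.0543% in Elf5-positive library 2 (0.0327 to 0.0847%) and 1.34% and 0.816% in Elf5-negative libraries 3 and 4, numbered B. Csn1s2a made up 13.5%, 21.1% and 17.2% in the A libraries, against 0.134%, 1.12% and 0.0408% in the B libraries, in the same order. Csn3 ranged from 7.71% in Elf5-negative library 1 to 92.1% in Elf5-negative library 3, and Csn1s1 was the larger part in Elf5-positive library 2, at 53.4%. The highest B share of Csn2, 1.34%, and of Csn1s2a, 1.12%, lay far below the lowest A shares of 24.2% and 13.5%.

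**Figure D4:**
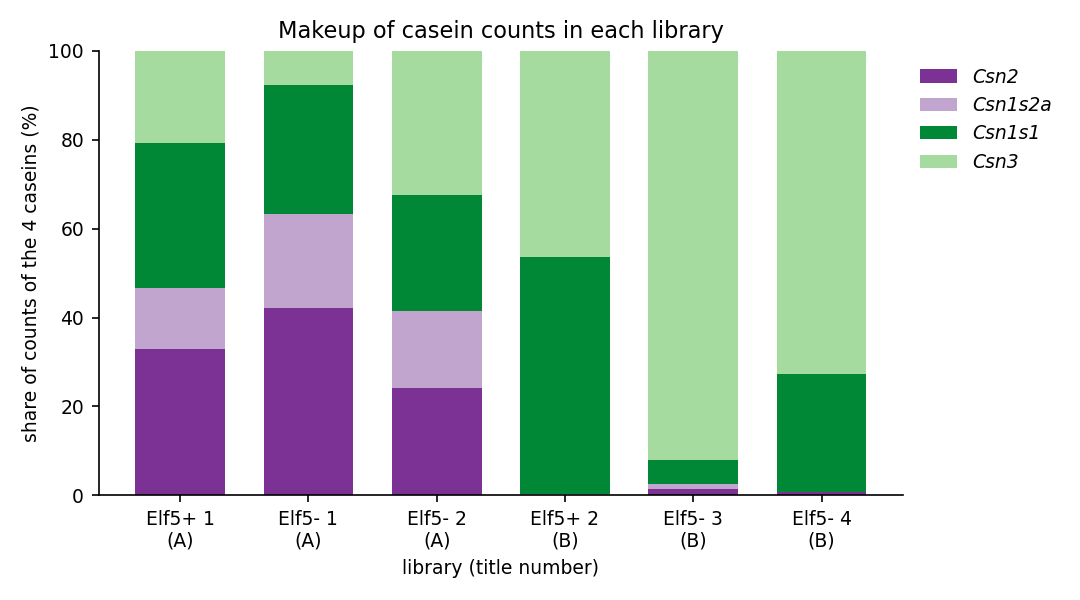
Share of the summed counts of Csn2, Csn1s2a, Csn1s1 and Csn3 (y axis, %) in each library (x axis), with the 3 libraries of title number A left and those of B right. Csn2 and Csn1s2a together fill a large part of each A bar, and the B bars are made up almost wholly of Csn1s1 and Csn3.

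The 4 caseins lie in 1 cluster of 266458 bases on chromosome 5 (GRCm38), in the order Csn1s1, Csn2, Csn1s2a, Csn1s2b, Odam and Csn3. Csn1s1 and Csn2 lie on opposite strands, 10045 bases apart; Csn2 was higher in every A library than in any B library, whereas Csn1s1 overlapped between the numbers. Between Csn1s2a and Csn3, Csn1s2b, a second alpha-S2-casein gene, had 2 and 7 counts in the Elf5-positive libraries and at most 5 in any Elf5-negative library, and did not pass the low-count filter. Odam, which encodes a secreted protein of enamel-forming epithelium, had 61 counts in Elf5-positive library 2 and 7 in Elf5-negative library 4, both numbered B and T2, and 0 in the other 4 libraries. Odam was named after its values had been seen, and its log2 fold change of 2.64 (SE 2.12) did not pass (edgeR adjusted p = 0.625). Of 5 casein neighbours listed, 4 were in the table and 2 were tested, and 0 passed.

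Other genes of milk production were read against the same shares, 0.585% higher and 3.79% lower among all genes. Of 20 genes of milk fat synthesis and the fat globule, 19 were tested, 1 rose and 1 fell. Mfge8, a fat globule protein that bridges membranes, was at 1466 CPM on average in Elf5-positive cells and 580.4 CPM in Elf5-negative cells, 1.34 higher on the log2 scale (SE 0.25, edgeR adjusted p = 0.0273). Lpl, a lipoprotein lipase that adipocytes also make, was at 4.84 against 184.5 CPM on average, with log2 fold change -5.25 (SE 0.65, adjusted p = 0.0114). The median of the 19 was 0.07. Of 16 genes of milk sugar, ions and transport 0 passed in either direction, with a median log2 fold change of -0.26. Of 11 other milk secretory products 2 rose and 0 fell, with a median of 0.53: Ceacam1, a cell adhesion molecule (2.55, SE 0.35, adjusted p = 0.0121), and Lcn2, an iron-scavenging lipocalin (2.04, SE 0.39, adjusted p = 0.0294).

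Of 12 other genes of the whey acidic protein domain family 8 were tested, 0 rose and 1, Wfdc1, fell, with a median of -0.36. Wfdc16 and Spint4 had no count in any library. Wfdc1 had 1 count over both Elf5-positive libraries and 124 over the 4 Elf5-negative libraries, a pooled ratio, Elf5-negative over Elf5-positive, of 87.4 (exact 95% interval 15.4 to 3478, counting error only; edgeR adjusted p = 0.0291). Of 20 regulators of lactation only Elf5, on whose reporter the cells were sorted, passed (log2 fold change 3.04, SE 0.48, edgeR adjusted p = 0.0165). The median of the 20 regulators was 0.03, near the 0.05 of all genes tested.

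By likeness of pattern, the genes closest to the mean log2(CPM + 1) of the 4 caseins over the 6 libraries were Mrpl45, Gtpbp2, Gm20683, Tdp2 and Rps6kb2, with Pearson r from 0.983 to 0.990 among 15137 genes ranked. How high r would run by chance with 6 points and so many genes was not tested. The mean also joins Csn2 and Csn1s2a, which separated by number, with Csn1s1 and Csn3, which overlapped. All 6 points share the depth and scaling of their libraries, and the likeness takes no account of the size of a change: Mrpl45, a mitochondrial ribosomal protein, ran from 27.4 to 40.7 CPM over the libraries, where Csn1s1 ran from 0.997 to 361.7 CPM.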

How the data were processed

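The values are estimated counts: the authors ran Salmon (build GRCm38.p5 is named) and deposited 1 expected count per Ensembl gene and library, all whole numbers, per the submitters' processing notes and the values. No source used here gives the Salmon version, the annotation or how transcripts were summed. IDs were matched to GENCODE M21 (GRCm38) without their version, and 52220 of 52325 had a symbol. Of the 31-base words of each member's transcripts at most 2.32% (Csn3) occur in transcripts of other genes.

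Genes were filtered with filterByExpr, scaled with TMM factors and tested with edgeR 4.0.16 in R 4.3.3 (quasi-likelihood, no block, Benjamini-Hochberg adjusted p below 0.05 over all 20684 genes). SEs are the log2 fold change over the root of F. The common biological coefficient of variation was 0.446. DESeq2 1.42.0 was an alternative, and figures used Python 3.11.15 with matplotlib 3.10.9. The test was tried on simulated counts with the same dispersion for every gene and no change in genes of the lowest levels. It therefore does not cover genes as low or as uneven as several here. Totals of 9106660 to 53694884 counts limit the precision of low genes, and intervals are for counting error alone. Members and gene lists were chosen with earlier results of these data known. Named were all 10 members, up to 4 genes of smallest p per list among those that passed, and the 5 genes nearest in pattern to the caseins. Fdcsp, a casein neighbour, was not analysed here.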

Additional observations from a re-analysis of the deposited data

Results flagged for a closer look

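In 4 of the 10 genes, 1 Elf5-negative library stood far from the other 3, measured as the distance to its nearest neighbour divided by the full range. This ratio was 0.975 for Wap, 0.905 for Csn2 and 0.863 for Csn1s2a, each with Elf5-negative library 1 as the high one, and 0.966 for Csn3, with Elf5-negative library 4 as the high one. Chance is taken to flag about 1 in 20 such groups, a rate not tested on these levels, which are CPM without logs. Levels of these genes in 1 library share its cells, so the flags are not independent.

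In 3 genes the Elf5-positive library had a higher value than its Elf5-negative partner in pair 1 and a lower value in pair 2. On log2 CPM with a prior count of 2, the difference in pair 1 and in pair 2 was 3.10 and -2.33 for Csn2, 2.87 and -1.70 for Lalba, and 1.86 and -0.49 for Btn1a1. For Btn1a1 the pair 2 ratio was 0.690 from 22 against 6 counts. Its exact 95% interval for counting error, 0.271 to 2.08, leaves the direction in pair 2 unsettled. The Lalba ratio in pair 2 was 0.251 (0.0763 to 0.877) from 8 against 6 counts. Each pair has 1 library a side, so the difference between the pairs was not tested.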

How the results depend on the processing

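Between the sorts 1 milk gene was higher and 0 lower, against 0.585% and 3.79% of all genes. None were higher when libraries were scaled to luminal epithelial markers, a fit that called 0.0629% of all genes higher and 41.9% lower. Nor were any in the T2 libraries alone or without Elf5-negative libraries 1 and 2 together, fits that called 0 of all genes higher. With no low-count filter 2 were higher, against 0.771% of all genes, and with DESeq2 2, against 2.11%. Muc15 was the gene added in both. With 1 Elf5-negative library left out, the higher count ran from 0 to 2, against 0.123% to 0.654% of all genes, and the lower count stayed at 0. Where a fit leaves 1 Elf5-positive library, that library is assumed to vary like the rest. With the title number as a replicate block 1 gene, Wfdc18, was higher (log2 fold change 2.17, edgeR adjusted p = 0.0123), against 1.22% of all genes. Restricted to T2 with the replicate block, 4 were higher and 1 lower, against 2.83% and 7.05% of all genes, a fit that rests on 2 pairs. These were Csn1s1 (adjusted p = 0.00384), Csn1s2a (0.0156), Muc15 (0.00693) and Wfdc18 (0.0072), and, lower, Glycam1 (0.0231). Over genes, deviations of same-numbered T2 libraries had a correlation of 0.735, but the labels do not say what the number pairs. By title number (0 higher, 0 lower), 6 were higher and 2 lower with no low-count filter (2.19% and 2.1% of all genes). There were 5 and 2 with DESeq2 (2.49% and 3.11%), and 2 and 4 in the T2 libraries (8.77% and 8.12%). With 1 Elf5-negative library left out, 0 were higher and 0 to 1 lower, against at most 0.103% and 0.196% of all genes. The cause of these changes was not tested. The share of counts in the 10 genes ran from 0.0347 to 0.0912% in Elf5-positive and from 0.0134 to 0.0216% in Elf5-negative cells with 1 library left out.

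Log2 fold changes between the sorts turned sign as follows, and no value of turned sign passed. Scaled to epithelial markers, Csn1s2a was at -1.61, Csn2 at -1.36, Wap at -1.65, Lalba at -0.40 and Btn1a1 at -0.89. With the replicate block Csn2 was at -0.016 and Wap at -0.071. Without Elf5-negative libraries 1 and 2 Glycam1 was at 3.02. With 1 library left out, Csn1s2a ran from -3.72 to 2.83, Csn2 from -5.98 to 3.33, Wap from -7.13 to 1.25, Lalba from -2.87 to 2.54, Btn1a1 from -1.37 to 1.69 and Csn3 from -0.33 to 3.68, while Csn1s1 (1.07 to 3.45), Muc15 (1.25 to 3.15), Wfdc18 (1.62 to 2.49) and Glycam1 (-7.01 to -1.94) kept their sign. By title number and with 1 library left out, Muc15 ran from -1.64 to 0.35 and Csn1s1 from -2.14 to 1.34.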
